A study of Mus musculus with 15 samples.

Results

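The genes described are 9 markers of GABAergic interneurons of the mouse cortex, taken as a list of symbols: Gad1, Gad2, Slc32a1, Sst, Pvalb, Vip, Npy, Calb2 and Lhx6. They are 9 of 33223 genes in the count tables, and all 9 were found there by their GRCm38 Ensembl identifiers. Of these genes, 7 passed the filter on low counts in the flow-through libraries, while Vip and Lhx6 did not. Slc17a7, which encodes the vesicular glutamate transporter of most cortical excitatory neurons, served as the reference for the other major neuron class.

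The libraries were bulk RNA from the injured side of the cortex of mice, taken 1 day after a moderate controlled cortical impact, a model of traumatic brain injury in which a device strikes the exposed brain. Wild-type mice carried floxed EphA4 without Cre (EphA4f/f-WT), and knockout mice carried the same floxed gene with a Cre recombinase under the VE-cadherin promoter (EphA4f/f-VeCadCreERT2). That promoter is active in endothelial cells, and Cre fused to this estrogen receptor form acts only with tamoxifen, so neurons are not the targeted cells. All mice received the injury, and no uninjured group was analysed here. The sources used here give no ages. Dissociated tissue was passed over CD45 and CD31 microbeads, and RNA was read from the CD45 fraction, which holds immune cells, and from the flow-through, labelled as all other cortical cells. The flow-through comparison used 4 WT and 3 KO libraries, and the CD45 fraction, read here as the background, had 3 WT and 4 KO libraries.

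Interneurons release GABA, the main inhibitory transmitter of the adult brain. Gad1 and Gad2 encode the enzymes that make GABA from glutamate, and Slc32a1 encodes the transporter that loads it into synaptic vesicles. The other members mark classes of interneuron: the peptides somatostatin (Sst), vasoactive intestinal peptide (Vip) and neuropeptide Y (Npy), the calcium-binding proteins parvalbumin (Pvalb) and calretinin (Calb2), and Lhx6, a transcription factor of interneurons born in the medial ganglionic eminence. Several of these genes are also known outside cortical interneurons, for example Gad1 and Gad2 in migrating neuroblasts and in striatal projection neurons.

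The 7 flow-through libraries held 19204814 to 27270907 counts each, and the 7 of the CD45 fraction 11574414 to 31337948. Another library, labelled flow-through WT and called replicate 5 here, has its column in the CD45 table, and it was left out. Replicate numbers follow the order of the samples, since the labels give none. Levels are given as CPM, each gene's counts relative to the library's counts, scaled by TMM, a factor that corrects for differences in RNA composition, within each fraction. The leukocyte list summed to 4.72 to 7.92 CPM in WT and 5.31 to 5.93 CPM in KO flow-through libraries, against 5219 to 9144 CPM in the CD45 libraries. The endothelial list summed to 41.3 to 53.5 CPM in WT and 39.9 to 55.3 CPM in KO flow-through libraries. In the CD45 libraries the endothelial list summed to 268 to 415 CPM. Epha4, the floxed gene, lay at 36.9 to 43.0 CPM in WT and 36.7 to 42.2 CPM in KO flow-through libraries, and these mixed cells do not show the deletion in endothelial cells. Because the libraries are bulk RNA, fewer cells of a type and less RNA per cell cannot be told apart in any result given here.

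All positions are those of GRCm38 in GENCODE M21, and all members are protein-coding genes. Chromosome 2 holds Gad1 (70553072 to 70602014, plus strand), Gad2 (22622205 to 22693874, plus strand), Slc32a1 (158610767 to 158615748, plus strand) and Lhx6 (36081953 to 36105408, minus strand). Sst lies on chromosome 16 (23889573 to 23890958, minus strand) and Pvalb on chromosome 15 (78191114 to 78206400, minus strand). Vip lies on chromosome 10 (5639218 to 5647617, plus strand), Npy on chromosome 6 (49822710 to 49829507, plus strand) and Calb2 on chromosome 8 (110137502 to 110168210, minus strand). Slc17a7 lies on chromosome 7 (45163949 to 45176142, plus strand). A predicted gene on the opposite strand covers 24.9% of the exon bases of Slc32a1, and the strand setting of the counting is not given, so Slc32a1 values are uncertain.

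Gad2 and Sst, whose differences ran in opposite directions, are shown with a stretch of their RefSeq promoters (GRCm38.p6), because Sst is the textbook gene of the cyclic AMP response element (CRE). The 250 bases before the RefSeq start were searched on both strands for TGACGTCA, the full CRE, and for TGACG, a short form of it that also lies inside the full element. The full CRE was in 1.55% of 32851 mouse windows and the short form in 17.8%. A window was found for 8 of 9 members, and among these the full CRE was in that of Sst and the short form in those of Sst, Gad2 and Vip. The stretches are 30 bases at chr2:22622281-22622310 on the plus strand and chr16:23890874-23890903 on the minus strand, written 5′ to 3′ with the motif in capitals. In Gad2 the short form, read on the other strand, lies 33 to 29 bases before the start, and in Sst the full CRE lies 48 to 41 bases before it. The RefSeq starts used here lie inside the GENCODE spans given above, which begin farther upstream, so both stretches are upstream of the start in RefSeq only. No binding was measured here, and a match describes letters only.
Gad2: tccatttcccttcCGTCActctctcatctc
Sst: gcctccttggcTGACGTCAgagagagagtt

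The first comparison asked whether the interneuron genes differed between KO and WT in the flow-through. Gad2 was lower in KO by a modest amount and was the only member called. Sst, Npy and Pvalb were higher in every KO library than in every WT library, but none passed the test. Gad1, Slc32a1 and Calb2 had overlapping libraries. Of the 7 members tested, 1 was called, and it was lower, where 1.57% of all 16546 genes tested were called, 1.42% as higher and 0.151% as lower. The test was edgeR's quasi-likelihood test with Benjamini-Hochberg adjustment over all genes, called at an adjusted p under 0.05.

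Gad2 encodes GAD65, the form of the enzyme found mainly at nerve terminals. It measured 41.7, 42.4, 40.1 and 35.99 CPM in the WT libraries and 31.8, 31.2 and 27.02 CPM in the KO libraries. The highest KO library lay below the lowest WT library. The mean was 40.03 ± 2.85 CPM in WT (SD, n = 4) and 30.01 ± 2.62 CPM in KO (SD, n = 3), from 588 to 963 counts per library. The log2 fold change was -0.42 (SE 0.10, 95% interval -0.62 to -0.21), a 1.33-fold lower level, with an edgeR adjusted p of 0.0494, just inside the threshold. Leaving out any single library ended the call: the adjusted p was 0.0798, 0.160, 0.138 and 0.0544 without WT replicates 1 to 4, and 0.101, 0.119 and 0.162 without KO replicates 1 to 3, with log2 fold changes of -0.46 to -0.35. The adjusted p was 0.969 in a joint fit of all 14 libraries (log2 fold change -0.40), 0.00844 with DESeq2 and 0.0648 (log2 fold change -0.36) once each library's trend on GC content and exon length was removed.

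Gad1 encodes GAD67, the form that makes most of the brain's GABA. It measured 107.7, 128.6, 119.5 and 116.0 CPM in WT and 102.3, 130.7 and 95.3 CPM in KO. KO replicate 2 was the highest of all 7 libraries and KO replicate 3 the lowest. The log2 fold change was -0.11 (SE 0.11, 95% interval -0.35 to 0.13, edgeR adjusted p = 0.779). Within each library, Gad1 counts were 2.59 to 3.22 times those of Gad2 in WT and 3.21 to 4.19 times in KO, ranges that overlap at their ends.

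Slc32a1, the vesicular GABA transporter, measured 7.44, 10.3, 6.51 and 5.50 CPM in WT and 7.45, 7.32 and 8.02 CPM in KO. The KO libraries lay inside the WT range. Its log2 fold change was 0.03 (SE 0.19, 95% interval -0.38 to 0.45, edgeR adjusted p = 0.971).

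**Figure D1:**
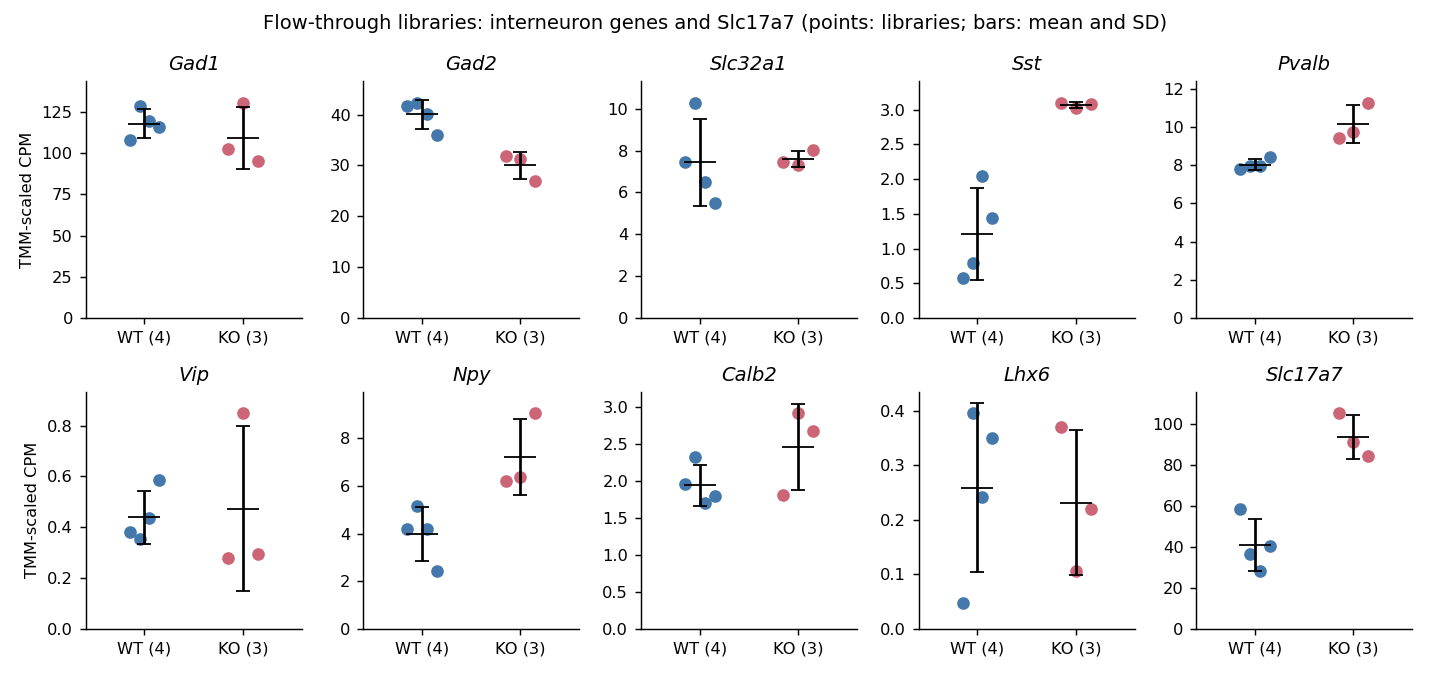
TMM-scaled CPM (linear axes from 0) of the 9 interneuron genes and Slc17a7 in the flow-through, with 1 point per library for 4 WT (blue) and 3 KO (red) libraries and bars for the mean and SD. Gad2 is lower in every KO library, Sst, Pvalb, Npy and Slc17a7 are higher in every KO library, and the other 5 genes overlap.

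Among the peptides, Sst measured 0.573, 0.792, 2.04 and 1.44 CPM in WT and 3.10, 3.02 and 3.07 CPM in KO. The KO libraries lay close together above the WT libraries, which were spread more widely. These levels rest on 12 to 42 counts per WT library and 57 to 84 per KO library. The mean was 1.21 ± 0.665 CPM in WT (SD, n = 4) and 3.07 ± 0.0404 CPM in KO (SD, n = 3). The log2 fold change of 1.34 (SE 0.34, 95% interval 0.60 to 2.07) did not pass the test, with an edgeR adjusted p of 0.0829. It passed with DESeq2 (adjusted p = 0.0127), without the filter on low counts (0.000189) and without WT replicate 3 (0.0304). It did not pass without any other single library (0.123 to 0.232) or in the joint fit of 14 libraries (0.380).

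Npy measured 4.20, 5.15, 4.18 and 2.42 CPM in WT and 6.20, 6.36 and 9.04 CPM in KO. KO replicate 3 was the highest and WT replicate 4 the lowest. The log2 fold change was 0.86 (SE 0.23, 95% interval 0.36 to 1.37, edgeR adjusted p = 0.11). With DESeq2 the adjusted p was 0.0247, and without the filter it was 0.000737, against 0.895 in the joint fit and 0.100 to 0.458 with single libraries left out. Npy was also the member with a higher level in the CD45 fraction than in the flow-through, described further on.

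Vip had 8, 8, 9 and 15 counts in the WT libraries and 6, 16 and 8 in the KO libraries, too few for the filter. A fit without the filter gave a log2 fold change of 0.05 (SE 0.50), so a difference was not detectable at this depth.

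Of the calcium-binding proteins, Pvalb measured 7.78, 7.96, 7.97 and 8.43 CPM in WT and 9.44, 9.76 and 11.3 CPM in KO. The WT libraries were tight and all lay under the KO libraries. The log2 fold change was 0.34 (SE 0.13, 95% interval 0.07 to 0.61), a 1.27-fold difference that did not pass the test (edgeR adjusted p = 0.308).

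Calb2 measured 1.96, 2.33, 1.70 and 1.80 CPM in WT and 1.81, 2.92 and 2.67 CPM in KO. KO replicate 1 lay among the WT libraries. Its log2 fold change was 0.34 (SE 0.24, 95% interval -0.18 to 0.86, edgeR adjusted p = 0.671).

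Lhx6, the transcription factor, had 1, 9, 5 and 9 counts in WT and 8, 2 and 6 in KO libraries. It did not pass the filter, and the fit without it gave a log2 fold change of -0.16 (SE 0.64). Lhx6 was therefore close to the limit of detection in these libraries.

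**Figure D2:**
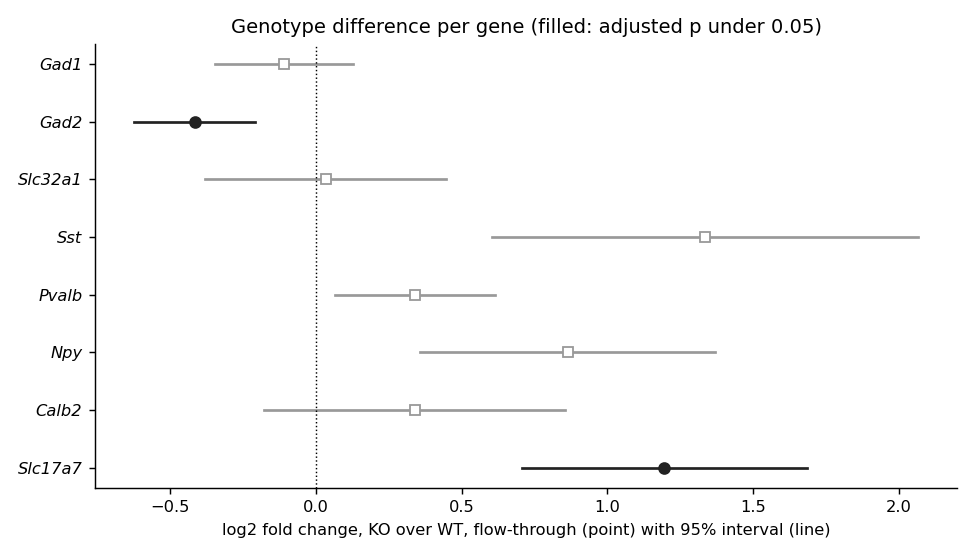
Log2 fold change of KO over WT in the flow-through (point) with its 95% interval (line) for the 7 interneuron genes tested and Slc17a7. Gad2 at -0.42 and Slc17a7 at 1.19 are filled because they passed the test, and the open points for Sst at 1.34, Npy at 0.86 and Pvalb at 0.34 did not although their intervals exclude 0.

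Counted over the 7 members tested, the genotypes' libraries did not overlap for 4 (57.1%): Gad2 lower in KO, and Sst, Npy and Pvalb higher. Among all genes tested, 11.5% had no overlap, 6.62% with KO higher and 4.9% with KO lower. The median log2 fold change of the 7 members was 0.34, with 5 positive and 2 negative, beside a median of -0.01 over all genes tested. The summed level of the 9 members overlapped, at 172 to 198 CPM in WT and 157 to 192 CPM in KO, and Gad1 made up 60.7 to 68.0% of their counts. Counts of Sst were 1.37 to 5.08% of those of Gad2 in WT libraries and 9.69 to 11.4% in KO libraries, a gap already set by the opposite directions of both genes.

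KO replicate 3 differed from the other libraries in its base composition. Relative to each gene's mean over the 7 libraries, its log2 levels rose with GC content by 0.208 per 10 percentage points. The other 6 libraries had slopes of -0.0919 to 0.0198 on the same scale. The longest transcript of Gad2 has a GC content of 44.1%, and those of Sst, Npy and Slc17a7 have 56.0%, 53.7% and 56.6%. The median over the genes tested was 49.6%. Pvalb, also higher in every KO library, has 49.3%, and Slc32a1, whose libraries overlapped, has 61.9%. The median was 56.9% in genes called higher in KO and 45.5% in genes called lower. With the trends on GC content and exon length removed, Sst had a log2 fold change of 1.26 (edgeR adjusted p = 0.154) and Npy of 0.84 (0.0931), both in the same direction as before, while Pvalb had 0.36 (0.229) and Slc32a1 -0.16 (0.821).

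The second comparison set the interneuron genes against the excitatory marker Slc17a7. Slc17a7 measured 58.4, 36.3, 28.3 and 40.2 CPM in WT and 105, 91.3 and 84.0 CPM in KO. Every KO library was above every WT library. The log2 fold change was 1.19 (SE 0.21, 95% interval 0.71 to 1.68, edgeR adjusted p = 0.0343), a 2.29-fold higher level. This call was lost without WT replicate 2 (adjusted p = 0.101), WT replicate 4 (0.0734), KO replicate 1 (0.147), KO replicate 2 (0.130) or KO replicate 3 (0.180), and with the trends on GC content and exon length removed (0.170), in the joint fit of 14 libraries (0.662) and with the left-out library taken in as labelled (0.853), with log2 fold changes between 1.08 and 1.26. The left-out library had Gad1, Gad2 and Slc17a7 levels within the ranges of the CD45 libraries, given at the end.

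Relative to Slc17a7, Gad2 stood 3.25-fold lower in KO. Counts of Slc17a7 were 1.40, 0.858, 0.706 and 1.12 times those of Gad2 in the WT libraries and 3.30, 2.93 and 3.11 times in the KO libraries. The ranges did not overlap, and neither did those of Gad2 and of Slc17a7 in CPM. In a fit with the Slc17a7 count of each library in place of the library size, the log2 fold change of Gad2 was -1.70 (SE 0.31, edgeR adjusted p = 1.04e-05). That p is too small as a measure of 7 libraries: the fit pools its spread over all genes, which share the noise of Slc17a7, and its intervals are as narrow as those of a normal distribution. It moved from 1.72e-13 to 0.00303 with single libraries left out. The same holds for the other members in this fit. For the ratio to Slc17a7 within each library, the exact two-sided permutation test over 35 splits gave a KO minus WT difference of -1.65 on the log2 scale (p = 0.0286, the smallest that 35 splits allow).

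In the same fit, 5 of 7 members were lower in KO: Gad1 by -1.40 (edgeR adjusted p = 6.40e-05), Gad2, Slc32a1 by -1.23 (0.000354), Pvalb by -0.93 (0.00515) and Calb2 by -0.89 (0.0314). Sst (-0.02, 95% interval -0.83 to 0.80, adjusted p = 0.966) and Npy (-0.40, 95% interval -1.07 to 0.27, adjusted p = 0.246) did not pass. These calls have to be read against the background, since 93.2% of all 16545 genes tested were called, 0.0181% as higher and 93.2% as lower, with a median log2 fold change of -1.28. Every gene is divided by the same 7 values of Slc17a7, so the calls are not independent of each other. Gad1 and Gad2 lay below the median of all genes, while Slc32a1, Pvalb, Calb2, Npy and Sst lay above it.

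The exact permutation test of the ratio was run for 9 members. After Gad2, the smallest p-values were 0.0571 for Gad1 (difference -1.36), Slc32a1 (-1.17) and Calb2 (-0.92), the ratios of which did not overlap between genotypes either. In CPM the libraries of Gad1, Slc32a1 and Calb2 overlapped. Slc17a7 itself did not overlap between genotypes, so a gene of even level can separate in this ratio through Slc17a7 alone. The share of all genes that do so was not computed, and these p-values, that of Gad2 included, carry the difference of Slc17a7. Pvalb (-0.90, p = 0.0857), Vip (-1.30, p = 0.114), Lhx6 (-1.25, p = 0.286), Npy (-0.36, p = 0.429) and Sst (0.25, p = 0.686) had overlapping ratios in this exact test. With the mean of the excitatory neuron list as the reference, 73.9% of 16546 genes were called, 0.441% as higher and 73.4% as lower. Of the 7 members, Gad1, Gad2 and Slc32a1 were lower there, Sst had a log2 fold change of 0.73 (edgeR adjusted p = 0.0351), and Pvalb (-0.24, adjusted p = 0.297) and Calb2 (-0.24, adjusted p = 0.480) were no longer called. With the mean of the pan-neuronal list as the reference, 10.6% of genes were called, 10.1% as lower, and of the 7 members 1 was, Gad2 (-0.81, edgeR adjusted p = 0.0061), a share near that background. The Pvalb call was also lost without KO replicate 1 (adjusted p = 0.0549), and that of Calb2 without WT replicate 2 (0.114), KO replicate 1 (0.197) or KO replicate 2 (0.0507).

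**Figure D3:**
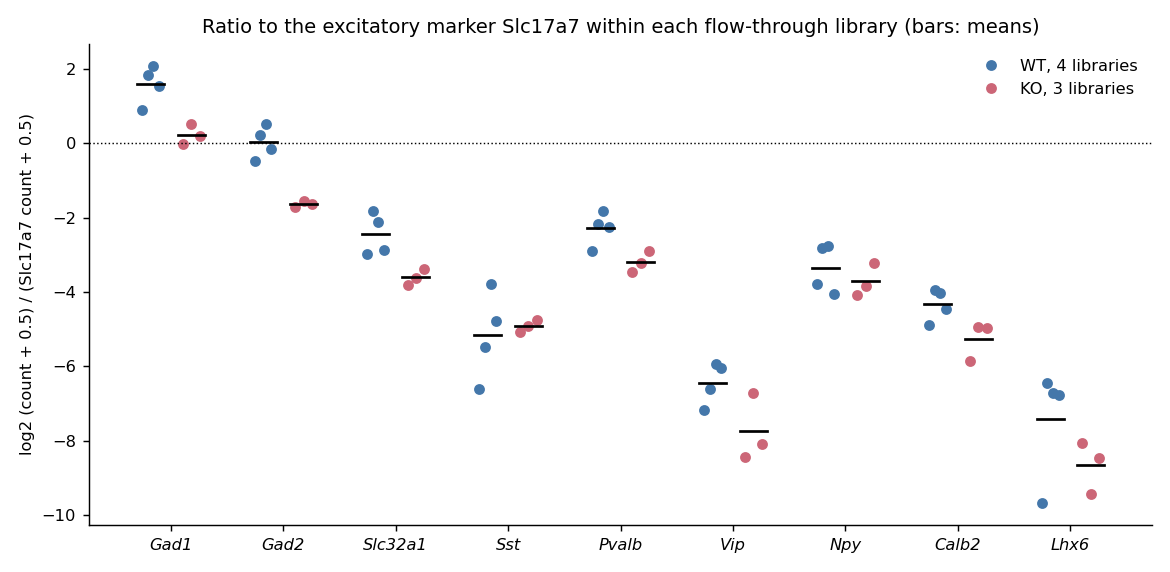
Log2 ratio of each interneuron gene's count to the Slc17a7 count within each flow-through library, 0.5 added to both, for 4 WT (blue) and 3 KO (red) libraries with bars at the means. Gad1, Gad2, Slc32a1 and Calb2 do not overlap between genotypes, and Sst has means of -5.16 and -4.91. Slc17a7 itself does not overlap between genotypes and enters every ratio, while Gad1, Slc32a1 and Calb2 overlap in CPM.

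Levels of different genes were compared per kilobase of exon. In WT flow-through libraries Gad1 was the highest at 15.4 ± 1.13 CPM per kb, followed by Pvalb at 7.72 ± 0.268, Npy at 7.04 ± 2.01 and Gad2 at 6.81 ± 0.485 (SD, n = 4). Npy overlapped both of its neighbours in this order. Slc32a1 at 2.66 ± 0.737, Sst at 1.68 ± 0.922 and Calb2 at 1.12 ± 0.159 CPM per kb came next, where Slc32a1 overlapped Sst and Sst overlapped Calb2. Vip, at 0.129 ± 0.0305, and Lhx6, at 0.0540 ± 0.0323 CPM per kb, were the lowest and did not overlap each other. In KO libraries the order of levels was Gad1 (14.3 ± 2.45 CPM per kb), Npy (12.7 ± 2.82), Pvalb (9.76 ± 0.941), Gad2 (5.11 ± 0.446), Sst (4.25 ± 0.0561), Slc32a1 (2.72 ± 0.133) and Calb2 (1.41 ± 0.335; SD, n = 3). Npy and Gad1 overlapped there, and no other neighbours in that order did. Slc17a7 averaged 7.57 ± 2.36 CPM per kb in WT (SD, n = 4) and 17.3 ± 1.98 in KO (SD, n = 3), below Gad1 in every WT library and above it in all KO libraries but KO replicate 2.

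The CD45 fraction gave the background of these genes among immune cells. Of the 8 members tested between fractions, 6 were lower in the CD45 libraries, Npy was higher and Vip did not pass the test, where 86.1% of 18098 genes were called (44.7% lower and 41.4% higher). Gad1 ranged over 0.772 to 4.64 CPM in the 7 CD45 libraries, Gad2 over 0.247 to 2.41 CPM and Pvalb over 0 to 0.518 CPM. Their log2 fold changes of CD45 over flow-through were -5.09, -5.19 and -5.45 (edgeR adjusted p = 2.31e-10, 2.91e-10 and 1.89e-11). Calb2 had no count in 5 of 7 CD45 libraries and 1 and 2 counts in the others.

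Slc32a1 and Sst were lower in the CD45 libraries by a smaller margin, each with a log2 fold change of -1.95 (edgeR adjusted p = 3.25e-07 and 5.02e-05). Slc32a1 lay at 0.679 to 2.22 CPM there and Sst at 0.119 to 0.795 CPM. Vip had a log2 fold change of -0.23 (95% interval -1.15 to 0.68, adjusted p = 0.614) and 2 to 13 counts per CD45 library. Npy reached 9.63, 10.8 and 5.43 CPM in CD45 WT and 9.82, 9.99, 11.3 and 2.38 CPM in CD45 KO libraries, a log2 difference of 1.19 over the flow-through (SE 0.29, adjusted p = 0.00135). WT replicate 3 and KO replicate 4 were the low libraries of that fraction. The fold changes between fractions come from a fit scaled over both fractions together, while the CPM are scaled within each. Their sizes therefore differ: Npy averaged 8.48 CPM in the CD45 libraries and 5.36 CPM in the flow-through, with overlapping ranges. Slc17a7 lay at 2.73 to 24.8 CPM in the CD45 libraries, a log2 fold change of -2.26 (adjusted p = 2.75e-05).

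**Figure D4:**
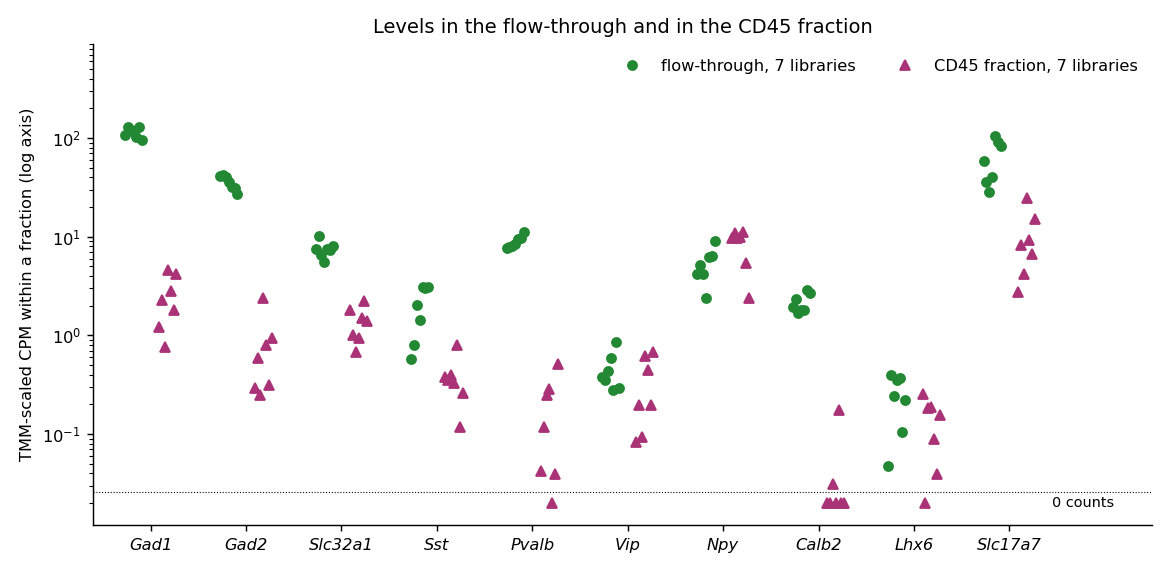
TMM-scaled CPM on a log axis of the 9 interneuron genes and Slc17a7 in 7 flow-through (circles) and 7 CD45 (triangles) libraries, scaled within each fraction, with libraries of 0 counts under the dotted line. Gad1, Gad2, Pvalb and Calb2 are far lower in the CD45 libraries, Vip and Lhx6 overlap, and Npy is higher in most CD45 libraries.

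Within the CD45 fraction, 5 members could be tested between genotypes and none was called, and 0% of 15660 genes were called by edgeR (693 at an unadjusted p under 0.05, and 9 by DESeq2 after adjustment). The log2 fold changes were 0.80 for Gad1, 1.43 for Gad2, -0.61 for Slc32a1, 1.42 for Vip (edgeR adjusted p = 0.974 for each) and -0.05 for Npy (0.994). Slc17a7, the reference, had 1.17 there (SE 0.63, 95% interval -0.30 to 2.65, edgeR adjusted p = 0.974), beside 1.19 in the flow-through. Gad1, Gad2 and Slc17a7 were all highest in CD45 KO replicate 2, at 4.64, 2.41 and 24.8 CPM. Whether the genotype difference itself differed between fractions was tested as an interaction, which called 0% of 18098 genes by edgeR (1305 at an unadjusted p under 0.05, and 46 by DESeq2). For Gad2 the flow-through difference minus the CD45 difference was -1.79 (SE 0.65, 95% interval -3.18 to -0.41, adjusted p = 0.649). Pvalb had -1.65 (95% interval -3.12 to -0.18, adjusted p = 0.674). Both values rest on few CD45 counts per library. Gad2 had 7 to 15 in CD45 WT and 8 to 51 in CD45 KO. Pvalb had 1 to 3 in CD45 WT and 0 to 10 in CD45 KO, too few for the test within that fraction. The intervals included 0 for Gad1 (-0.84), Slc32a1 (0.69), Sst (0.80), Vip (-1.34), Npy (0.93) and Calb2 (-2.82). For Slc17a7 the value was 0.05 (SE 0.67, 95% interval -1.39 to 1.49), and Lhx6 was not tested.

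Of the genes that handle GABA around its release, 8 of 9 were tested and none was called, where 1.57% of all genes tested were. This list holds GABA transporters and the enzymes and carriers that break GABA down or supply its precursors, with a median log2 fold change of 0.18. Abat, the GABA transaminase, had the smallest p, at a log2 fold change of 0.30 (edgeR adjusted p = 0.317). Among GABA receptor subunits, 2 of 14 tested rose in KO and none fell, with a median of 0.14. Of all genes tested, 1.42% were called higher and 0.151% lower. Gabbr2, which encodes one part of the metabotropic GABA-B receptor, lay at 33.4 to 48.7 CPM in WT and 57.3 to 73.3 CPM in KO (log2 fold change 0.75, adjusted p = 0.0116). Gabra3, an alpha subunit of the GABA-A receptor, lay at 7.39 to 10.4 CPM in WT and 11.5 to 14.9 CPM in KO (0.67, adjusted p = 0.0416).

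Of the interneuron transcription factors, 13 of 14 were tested and none was called (1.57% of all genes tested were). Their median log2 fold change was -0.15, with 10 negative and 3 positive. Npas1 had the smallest p, at 1.18 (edgeR adjusted p = 0.267). Nkx2-1 was not analysed here. Of 23 further interneuron subtype genes tested, 1 rose and none fell (1.42% and 0.151% over all genes tested), with a median of 0.17. The one was Cck, a peptide of some interneurons that many excitatory neurons also express, at 7.63 to 15.3 CPM in WT and 21.0 to 24.1 CPM in KO (log2 fold change 1.11, adjusted p = 0.0136). Over this subtype list, 18 log2 fold changes were positive and 5 negative. The list summed to 260 to 296 CPM in WT and 321 to 350 CPM in KO, without overlap.

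Markers of other cells that the flow-through could hold were counted beside these genes. Calls in these lists and those that follow stand beside shares over all genes tested of 1.42% higher and 0.151% lower. Of 14 excitatory neuron genes 4 rose, with a median log2 fold change of 0.52: Emx1, a cortical homeobox factor (1.11, edgeR adjusted p = 0.0119), Cux2, an upper-layer factor (0.50, 0.027), Slc17a7, and Nrgn, a postsynaptic calmodulin-binding protein (1.22, 0.0418). Of 12 pan-neuronal genes 1 rose, Syp, a synaptic vesicle protein (0.65, adjusted p = 0.0112), 16.8% of the exon bases of which overlap a predicted gene on the opposite strand. Their median was 0.54.

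Neuroblasts, young migrating neurons that express Gad1, Gad2 and Dlx genes, had a list of 10 genes that were all tested. None was called, all 10 had negative log2 fold changes, and the median was -0.36. Dlx6os1, a long noncoding RNA of the Dlx locus, had the smallest p (-0.43, edgeR adjusted p = 0.128). The list summed to 1263 to 1546 CPM in WT and 874 to 1216 CPM in KO, without overlap, as for Gad2. Striatal projection neuron genes, another GABAergic source, had no call among 9 tested and a median of 0.26, and the smallest p was that of Ppp1r1b (0.76, adjusted p = 0.161). They summed to 40.9 to 43.9 CPM in WT and 48.0 to 68.1 CPM in KO, and Isl1 did not exceed 0.0530 CPM in any flow-through library. Their part in the Gad2 result was not tested.

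No gene was called in the lists of astrocytes (8 tested), oligodendrocytes (6), their precursors (6), microglia (5), endothelial cells (5) and leukocytes (4). Their median log2 fold changes were 0.05, 0.07, 0.13, 0.08, -0.18 and -0.18. The endothelial list was lower in the flow-through than in the CD45 libraries, as given above, so its median says little on the targeted cells. The smallest p in each list belonged to Slc1a2 (0.36, edgeR adjusted p = 0.236), Mbp (0.44, 0.396), Sox10 (0.23, 0.377), Cx3cr1 (1.25, 0.0723), Kdr (-0.34, 0.680) and Ptprc (-0.36, 0.728).

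**Figure D5:**
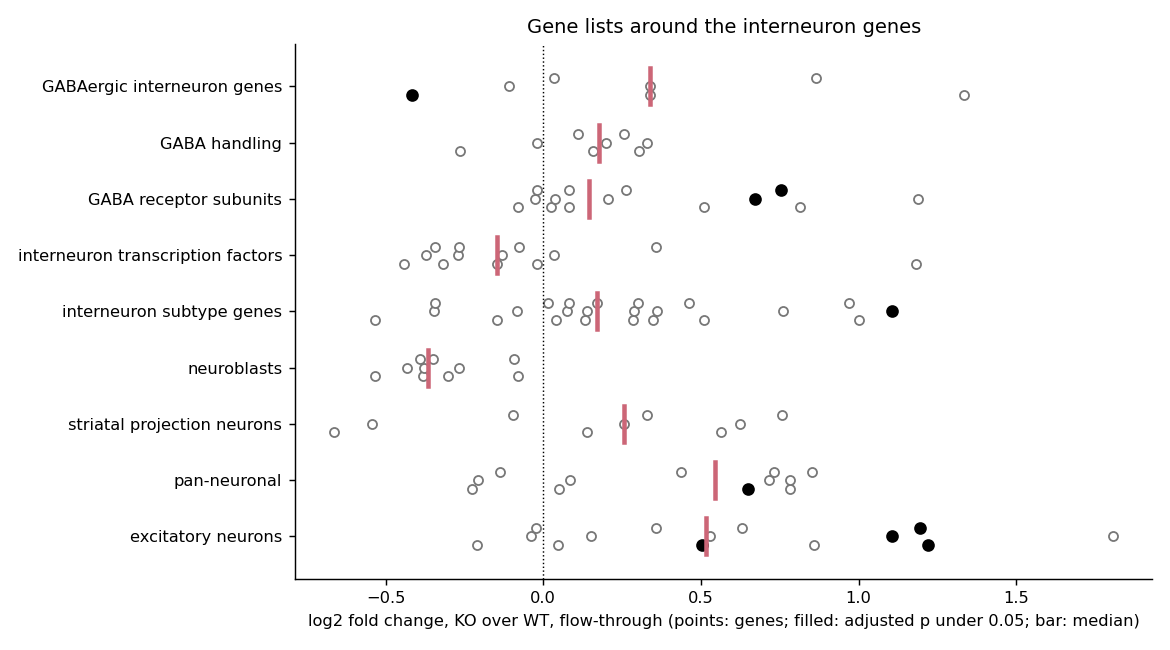
Log2 fold change of KO over WT in the flow-through for each tested gene of 9 lists (points, filled where the adjusted p was under 0.05) with the list's median (red bar). The interneuron genes spread from -0.42 to 1.34, all neuroblast genes lie under 0, and the excitatory list has a median of 0.52.

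The genes most like Gad1, Gad2 and Slc32a1 across the 7 flow-through libraries were found among 13668 genes whose log2 CPM averaged 1 or more, as the smallest root mean square difference of log2 CPM centred on each gene's mean. For Gad2 these were Dpysl3, a cytoskeletal protein of growing neurons (0.0474), Meis2, a homeobox factor (0.0657), and 3110039I08Rik (0.0679), where the median over all genes was 0.260. Their own log2 fold changes were -0.38, -0.31 and -0.42, the last with an edgeR adjusted p of 0.0198. For Gad1 they were Zswim6 (0.0370), Cox11 (0.0614) and Birc3 (0.0623), and for Slc32a1 Eln (0.0773), Mettl27 (0.0790) and Mycl (0.0867). The same 7 libraries and their scaling enter every one of these differences. The genes were chosen for likeness over these WT and KO libraries. Fold changes close to that of Gad2 therefore follow from the choice, and the adjusted p is no added evidence.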

How the data were processed

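Counts of reads per gene were deposited by the authors without normalization, in 1 table per fraction. Per the submitters' processing notes, reads were processed with Trim Galore and FastQC and with STAR 2.7.9a, and the build was GRCm38. The sources used here do not give the counter, its strand setting or the annotation, and the deposited normalized tables were not used. Of 33223 genes, 33130 matched GENCODE M21.

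The tests used edgeR 4.0.16 (R 4.3.3, limma 3.58.1) with its robust quasi-likelihood test on the counts, with TMM scaling and filterByExpr (10 counts in enough libraries, 15 in total), and p-values were adjusted over all genes. The flow-through fits were also run on counts simulated from the flow-through means with known fold changes. That simulation held no trend on GC content and did not count false calls relative to Slc17a7. Intervals are 95%. Flow-through and CD45 genotypes were fitted separately, and fractions and the interaction jointly over 14 of 15 libraries. DESeq2 1.42.0, other scalings, no filter, left-out libraries, other references and trends on GC content and exon length (splines with 5 degrees of freedom) were alternatives. In 18 pairs of libraries within groups the chi-square of the counts was 9.42 to 49.8 per degree of freedom, so none was a duplicate. Because no animals are named in the labels, p-values reflect only how much these samples vary, which may be technical.

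The rule for the members uses no measured value, but it and the lists were set with earlier results of these data known. Members and Slc17a7 are given in full. From each other list every called gene, up to 4, is named, or else the gene with the smallest p. For Gad1, Gad2 and Slc32a1 the 3 most similar genes are named.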

Additional observations from a re-analysis of the deposited data

Results flagged for a closer look

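Npy in CD45 KO replicate 4 measured 2.38 CPM, where the other 3 libraries of that group measured 9.82 to 11.3 CPM. Its gap to the nearest library was 0.834 of the group's range, above the 95% critical value of Dixon's test for 4 samples (0.829). It was the only one flagged among 20 groups of gene values tested, and chance flags about 1 in 20.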

How the results depend on the processing

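The flow-through comparison called 260 genes and 1 interneuron gene. DESeq2 called 436 and 3, no filter on low counts 629 and 3, the joint fit of 14 libraries 30 and 0, and a fit that took in the left-out library as flow-through WT 0 and 0. With the GC and length trends removed 188 genes and 0 members were called, and leaving out 1 library at a time gave 134 to 287 genes and 0 to 1 members. Gad2 kept its sign in 14 of 14 alternatives and its call in 4, with adjusted p from 0.00765 to 0.989. The highest came from the fit with the left-out library, whose Gad1 and Gad2 levels lay within the CD45 ranges. Relative to Slc17a7, 15419 genes and 5 members were called, against 1749 and 1 with the pan-neuronal list as reference, and 14191 to 15930 genes and 3 to 6 members with 1 library left out. Sst relative to the excitatory list had a log2 fold change of 0.73, against -0.02 relative to Slc17a7. The interaction called 0 genes by edgeR (1305 at an unadjusted p under 0.05), 46 by DESeq2, 15 without the filter and 0 to 2 with 1 library left out. The CD45 genotype comparison called 0 by edgeR (693 unadjusted), 9 by DESeq2 and 0 to 1 with 1 library left out. The cause of these changes was not tested. No paired analysis was possible because the labels give no replicate numbers. Per flow-through library, Lhx6 had 1 to 9 counts and Vip 6 to 16, too few for the filter, Sst 12 to 84 and Calb2 35 to 73.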

Other observations

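The library labelled flow-through WT (replicate 5 here), whose column stands in the CD45 table, had 2.66 CPM of Gad1, 0.689 CPM of Gad2 and 22.0 CPM of Slc17a7. These were computed on its total count, without TMM scaling. Npy had 7.39 CPM there, and the 9 interneuron genes together had 288 counts.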
